A study of Mus musculus with 8 samples.

Results

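NA1b is a subtype of noradrenergic neurons of the mouse stellate ganglion, rich in mRNA of Col5a3, which encodes the alpha 3 chain of type V collagen. Its members are the neurons annotated NA1b in the deposited cell table, 311 of the 1303 neurons in the data, and they were compared with the other 992 neurons, which fall into NA1a, NA1c, NA2, NA3, Ach1, Ach2 and Glut. The neurons came from both stellate ganglia of C57BL6/J mice aged 8-10 weeks, in 1 condition, with an adeno-associated virus (AAV) for GFP injected into the heart and one for tdTomato into the front paws of every animal. Each library carries the name of 1 mouse and is taken as a replicate. The labels state that 16 ganglia of both sides were digested together, which is as many as 8 mice have, so whether a library held cells of 1 mouse only is not known, and p-values measure the spread between libraries, which may be technical. For tracing, the methods list CAG-flex vectors, which express after Cre recombination, and for heart sections a GFP vector without flex, and which form the sequenced mice received is not stated. RNA was captured with the 10x Genomics system, in which a unique molecular identifier (UMI) marks each captured molecule, and levels are given as UMIs per 10000 UMIs of a neuron, averaged over the neurons of a mouse.

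The stellate ganglion is a sympathetic ganglion whose postganglionic neurons innervate the heart and the forelimb. Most of its neurons make noradrenaline from tyrosine, package it into vesicles with a monoamine transporter and take it back up after release, and many release neuropeptides such as neuropeptide Y (Npy) and galanin (Gal) beside it. A smaller set is cholinergic and innervates sweat glands, with Vip as a peptide of such neurons.

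Of 8 mouse names, 5 were each matched to 1 sample (replicates 1 to 5), and NA1b held 38, 94, 31, 33 and 41 neurons in them, which is 23.2% ± 9.90 (SD, n = 5 mice) of all neurons in a library. The neurons of the other 3 names (301, of which 74 were NA1b) enter only pooled values. The NA1b neurons of a mouse summed to 187459 to 321469 UMIs and its other neurons to 728837 to 936928. The median NA1b neuron held 2569, 2615.5, 6300, 9223 and 5807 UMIs in replicates 1 to 5, against 3578, 2932, 4487.5, 2809.5 and 4629.5 in other neurons. NA1b was deeper in 3 of 5 mice, with no difference past the spread over mice (exact sign-flip permutation test, two-sided, p = 0.4375; 5 mice cannot give less than 0.0625). Mitochondrial RNA took 4.51% ± 1.64 of UMIs in NA1b and 5.17% ± 0.456 in other neurons (the same exact test, p = 0.375). A set of 21 cell barcodes appeared in more than 1 library, and 73 neurons carried them (55 NA2, 15 Ach2 and 3 Glut). No NA1b neuron did. Results resting on the comparison group are therefore also given without these neurons.

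The subtypes were drawn by the authors from the expression of these same neurons, so a gene that separates them is in part what defines them. The tests between subtypes measure only how steady a difference was over the 5 mice, and the genes of the name Col5a3-rich and its fellow markers are given as a description.

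The 6 markers of NA1b were Col5a3, the sodium-activated potassium channel gene Kcnt1, the neurturin co-receptor gene Gfra2, the vesicular monoamine transporter gene Slc18a1 (VMAT1), the sodium pump regulator gene Fxyd2 and the zinc finger transcription factor gene Casz1. Levels of Col5a3, Kcnt1, Casz1 and Slc18a1 in NA1b lay above those of the other neurons in each mouse with no overlap. Those of Fxyd2 and Gfra2 overlapped. Since the subtype was drawn from these same neurons, this describes the label and does not test it.

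Col5a3 (GRCm38, chromosome 9, 20770050 to 20815067, minus strand) stood at 28.7, 40.7, 41.2, 31.5 and 28.8 UMIs per 10000 in NA1b of replicates 1 to 5, and at 6.8, 8.41, 6.27, 6.67 and 8.27 in other neurons. Each NA1b value exceeded each value of other neurons, and the ratio of the means was 4.69. Kcnt1 (chromosome 2, 25863734 to 25918273, plus strand) stood at 5.27, 8.87, 4.27, 5.31 and 3.34 against 1.52, 2.31, 0.966, 1.04 and 1.15, highest in replicate 2 on both sides and without overlap. Casz1 (chromosome 4, 148804429 to 148954889, plus strand) stood at 4.76, 5.69, 3.38, 2.91 and 3.01 against 1.37, 1.54, 1.02, 1.29 and 1.36, again without overlap. Slc18a1 (chromosome 8, 69037711 to 69089235, minus strand) stood at 0.392, 1.18, 1.05, 0.686 and 1.19 against 0.143, 0.0795, 0.0387, 0.105 and 0.0895. Its values in other neurons and that of NA1b in replicate 1 lay below 0.5. The filter on low values asks for at least 0.5 in 5 profiles, so Slc18a1 has no test.

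Fxyd2 (chromosome 9, 45399669 to 45410278, plus strand) stood at 9.67, 9.49, 9, 9.56 and 7.07 in NA1b and at 6.96, 5.2, 8.38, 7.29 and 3.42 in other neurons. NA1b was higher in every mouse, but its lowest mouse lay below the highest mice of the other neurons, and NA2 held more Fxyd2 than NA1b (15 ± 3.3, SD, n = 5). Gfra2 (chromosome 14, 70890120 to 70979838, plus strand) stood at 0.598, 1.27, 0.66, 0.91 and 0.847 against 0.302, 0.351, 0.454, 0.664 and 0.562. NA1b was higher in each mouse with overlapping groups, and pooled over all neurons Ach1 (1.06), Glut (1.45) and Ach2 (1.86) lay above NA1b (0.85). NA1a (0.0759) and NA1c (0.0657) lay far below it.

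**Figure D1:**
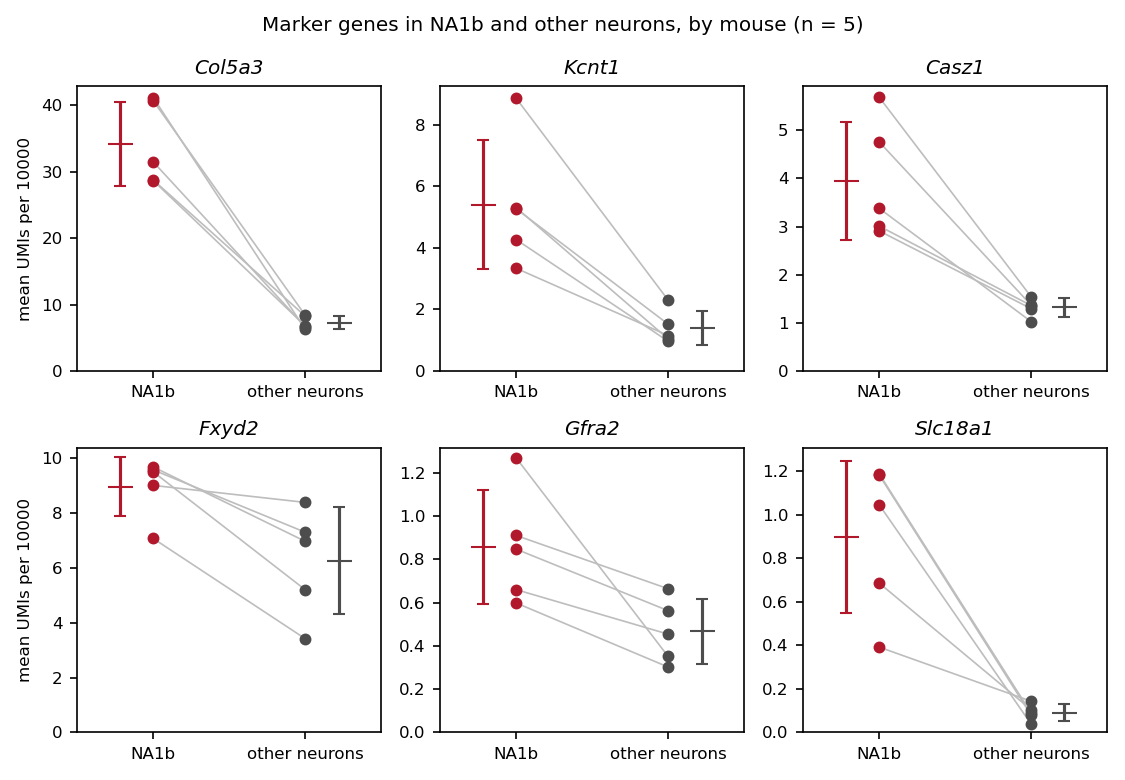
Level of the 6 markers in UMIs per 10000 (vertical axes, each from 0) in NA1b and in other neurons of the same mouse; points are the 5 mice, joined by lines, and bars give the mean ± SD. All lines fall from NA1b to other neurons, with separated groups for Col5a3, Kcnt1, Casz1 and Slc18a1 and overlapping ones for Fxyd2 and Gfra2.

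Promoter sequence is shown for 3 genes that separate NA1b: Col5a3 and Adcy1, the highest by log2 difference, and Npy, a peptide gene that was lower in NA1b than in NA1a and in NA1c. Each window runs from 250 bases before to 50 bases after the RefSeq start (GRCm38.p6), written 5′ to 3′ on the strand of the gene, with matches to 5 motifs on either strand in capitals: the CCAAT box, the GATA core GATAA, the E-box CACGTG, the TATA box TATAAA and the EBF core CCCNNGGG. Of 8 genes looked up, these 3 and Casz1 had a window in the table.
Col5a3, chr9:20815018-20815317, minus strand: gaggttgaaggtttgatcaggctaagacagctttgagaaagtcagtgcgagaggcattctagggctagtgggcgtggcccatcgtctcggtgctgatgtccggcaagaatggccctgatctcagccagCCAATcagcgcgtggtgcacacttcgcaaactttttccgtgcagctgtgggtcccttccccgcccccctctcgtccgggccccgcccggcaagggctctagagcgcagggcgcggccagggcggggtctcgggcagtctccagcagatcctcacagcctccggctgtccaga
Adcy1, chr11:7063183-7063482, plus strand: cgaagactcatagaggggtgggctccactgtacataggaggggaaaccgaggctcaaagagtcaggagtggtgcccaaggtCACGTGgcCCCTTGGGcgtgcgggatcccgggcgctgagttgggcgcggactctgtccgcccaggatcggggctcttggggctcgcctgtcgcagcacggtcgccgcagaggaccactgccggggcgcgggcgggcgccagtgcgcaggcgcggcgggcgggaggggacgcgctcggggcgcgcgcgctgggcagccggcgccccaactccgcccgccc
Npy, chr6:49822460-49822759, plus strand: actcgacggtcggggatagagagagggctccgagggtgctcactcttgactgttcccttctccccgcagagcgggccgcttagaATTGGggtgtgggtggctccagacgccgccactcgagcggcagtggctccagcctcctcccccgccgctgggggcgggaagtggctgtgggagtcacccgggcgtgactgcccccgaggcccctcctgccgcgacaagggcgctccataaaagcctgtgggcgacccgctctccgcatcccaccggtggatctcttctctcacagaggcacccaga
The windows hold 63.3%, 74% and 68% G or C, against a median of 52.7% over 32851 RefSeq promoters of the same length, and 20, 37 and 24 CG pairs. The Col5a3 window has CCAAT at -122 and the Npy window its reverse complement ATTGG at -166, letters found in 37.4% of all promoters. The Adcy1 window has CACGTG, an E-box found in 7.15% of promoters, at -169, and CCCNNGGG, the core that EBF factors bind (13.7%), at -161. None of the 3 windows holds TATAAA (13.6%) or GATAA (25.4%). A match here is a description of letters and not of a bound site.

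Single NA1b neurons varied widely in Col5a3. The median neuron held 31.0 UMIs per 10000, the lowest 10% at most 8.91 and the highest 10% at least 65.2, and the neuron with the most held 150, from 59 UMIs of Col5a3. The median of other neurons was 4.76, and 3.23% of them exceeded the NA1b median. At least 4 of the 6 markers were detected together in 71.4% ± 10.2 of NA1b neurons (SD, n = 5 mice), against 20.7% ± 3.65 of other neurons, 35.1% ± 4.64 of NA1a and 14.95% ± 1.74 of NA1c. NA1a neurons were deeper (pooled median of 6524.5 UMIs against 3252 in NA1b). After each neuron was thinned to 2000 UMIs, which kept 195 of 237 NA1b and 618 of 765 other neurons of the 5 mice, the shares were 38.95% ± 12.4 in NA1b, 4.14% ± 1.36 in all others, 3.64% ± 1.34 in NA1a, 8.27% ± 6.67 in NA1c and 0% in NA2. The lowest NA1b mouse at this depth, 24.3%, still lay above the highest NA1c mouse, 16.7%.

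Among NA1b neurons of a mouse, the ln-scale level of Col5a3 went with that of Casz1 (mean Pearson's r of 0.322 over mice, 0.213 to 0.41), Kcnt1 (0.331, 0.00512 to 0.527) and Slc18a1 (0.261, 0.201 to 0.316), with a positive r in all 5 mice. It did not go with Fxyd2 (-0.0577, positive in 2 of 5 mice) or Gfra2 (0.055, positive in 3). Npy ran against Gfra2 (-0.166) and Slc18a1 (-0.139) in each of the 5 mice. These values are over 31 to 94 neurons that share a library and differ in depth, and they are descriptions of weak relations in sparse counts.

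Against all other neurons together, NA1b was highest above them in Adcy1, Col5a3, Slc38a11, Man1a and Kcnt1 and farthest below in Sctr, Pcp4 and Vip. With limma on log2(mean UMIs per 10000 + 0.1), a scale that understates changes of low genes, 1207 of 3891 genes tested passed an adjusted p of 0.05 (31% of the genes), 524 higher in NA1b (13.5%) and 683 lower (17.6%). When natural log values were averaged instead, the split was 666 higher and 525 lower. The count was 786 without the neurons of shared barcodes (323 higher, 463 lower), 495 after thinning to 2000 UMIs (166 and 329) and 798 without replicate 4.

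**Figure D2:**
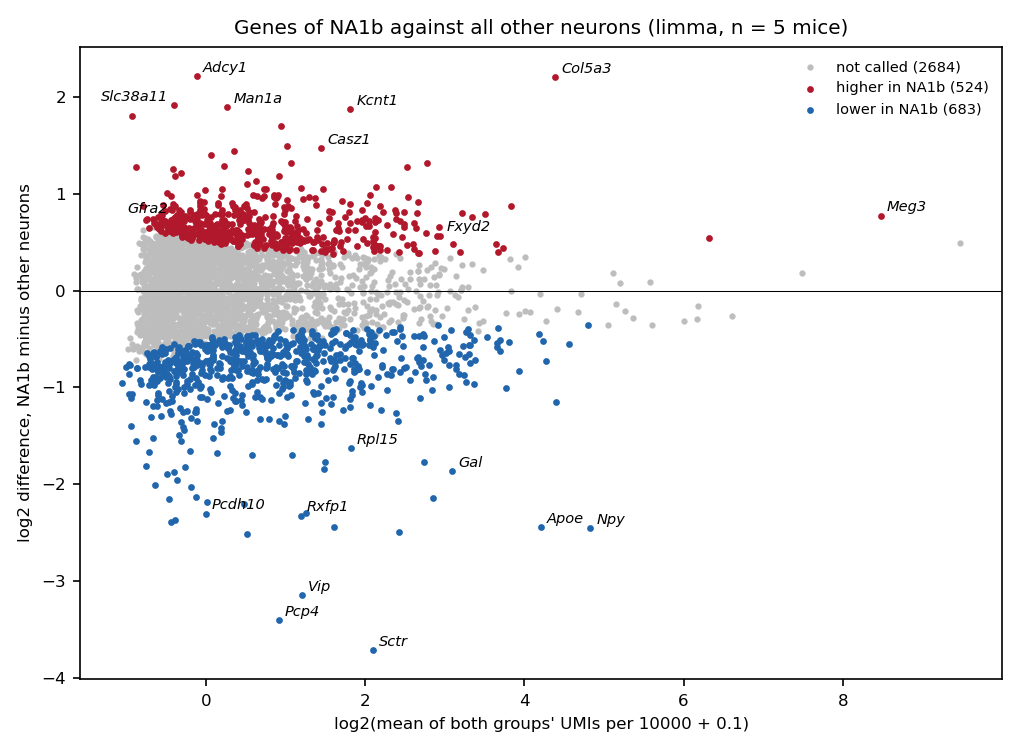
Log2 difference of NA1b minus other neurons (vertical axis) against the mean level in log2(UMIs per 10000 + 0.1) (horizontal axis) for the 3891 genes tested; 524 called higher and 683 called lower are coloured and 2684 not called are grey. Col5a3 lies far above 0 and Npy far below it, both at high levels.

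The gene with the largest positive difference was Adcy1, the adenylyl cyclase that calcium and calmodulin stimulate. It stood at 1.46, 0.838, 1.59, 1.36 and 1.88 UMIs per 10000 in NA1b and at 0.239, 0.136, 0.276, 0.184 and 0.283 in other neurons, a log2 difference of 2.22 ± 0.21 (SE; adjusted p = 8.13e-08). The groups did not overlap, and the ratio of the means was 6.38. Col5a3 followed at 2.20 ± 0.14, and Slc38a11, of a family of amino acid transporters, at 1.91, with 0.732 to 1.39 in NA1b and 0.15 to 0.291 in other neurons. In other neurons Adcy1 and Slc38a11 lay below 0.5 in each mouse, so they passed the filter through NA1b alone. They could be called only as higher, and their p measures only how steady that was over mice. Any gene below 0.5 on 1 side in each mouse has its direction fixed in the same way. Man1a, a Golgi mannosidase that trims N-glycans, was higher by 1.90 (0.956 to 2.71 against 0.19 to 0.603). Kcnt1 followed at 1.87, and then Ccser1 at 1.80, the noncoding transcript C230004F18Rik at 1.70, Ntng1, a membrane-anchored netrin, at 1.5, and Casz1 at 1.47. Dmkn, which encodes the secreted protein dermokine, was higher by 1.44, the AMPA receptor subunit gene Gria3 by 1.40 and the noncoding RNA Miat by 1.32.

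The largest negative difference was that of Sctr, the secretin receptor gene. It stood at 1.19, 1.76, 0, 0.542 and 0.251 in NA1b and at 6.8, 12.5, 5.46, 5.45 and 7.8 in other neurons (log2 difference of -3.72 ± 0.30, adjusted p = 5e-09). No UMI of it was found in the 31 NA1b neurons of replicate 3, and 23.4% of NA1b neurons of replicate 2, the highest mouse, had one. Pcp4, a small regulator of calmodulin, stood at 0.26, 0.218, 0.128, 0.317 and 0.182 against 3.92, 2.64, 5.12, 2.6 and 2.49 (-3.40 ± 0.22). Both were separated in every mouse from other neurons. Rxfp1, a relaxin receptor gene, was at 0.459 to 0.878 against 2.82 to 5.03 (-2.32), Tmc3, of the transmembrane channel-like family, was at a log2 difference of -2.37, and Pcdh10, a protocadherin gene, stood at 0.494, 0.181, 0.0745, 0.259 and 0.284 against 1.54 ± 0.0837 (-2.30). Pcp4 and Pcdh10 lay below 0.5 in NA1b of each mouse and passed the filter through other neurons alone. Both could thus be called only as lower.

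Others among the 12 genes with the largest negative differences were Gpm6b (-2.51), Fabp7 (-2.49), Apoe (-2.44), Vim (-2.44) and Igfbp6 (-2.39), which are genes of glia or connective tissue. Of these, Gpm6b, Fabp7, Apoe and Vim were tested against NA1a and NA1c and not called in either. Apoe stood at 6.23 ± 4.05 in NA1b, 4.42 ± 0.688 in NA1a and 7.68 ± 4.2 in NA1c, and pooled it reached 165 in NA3 and 76.2 in Ach1. When only NA1a, NA1c and NA2 served as the comparison, the differences of Apoe and Fabp7 were -0.02 and -0.23 and were no longer called, that of Vim was smaller and still called (-0.60, adjusted p = 0.0353), and Gpm6b and Igfbp6 did not pass the filter.

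That pattern held for a whole list of 12 satellite glia markers, of which 7 were tested and 6 were lower in NA1b (17.6% of all genes were), with a median log2 difference of -2.30 against 0 over all genes. Their summed level ran from 4.44 to 26.6 UMIs per 10000 in NA1b and from 36.2 to 88.1 in other neurons, and all 12 had a lower mean. Of 9 Schwann cell markers, the sum was 2.87 to 6.03 against 4.95 to 9.71, and of 9 fibroblast markers 0.627 to 2.40 against 2.97 to 15.2, with Dpt at 0. Endothelial markers (9; Cdh5, Kdr and Emcn at 0) summed to 0.186 to 1.102 against 0.722 to 1.102, immune markers (9; Ptprc and Cd3e at 0) to 0.305 to 1.11 against 0.531 to 2.49, and smooth muscle markers (8; Acta2, Cnn1 and Des at 0) to 0.107 to 0.293 against 0.323 to 1.11. The part of this other-cell RNA in the comparison with all other neurons was not tested, apart from the comparison limited to NA1a, NA1c and NA2, given beside each named gene that lost its call there. Against NA1a and against NA1c, none of the tested satellite glia markers was called.

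The counts of the gene lists that follow are for NA1b against all other neurons, where 13.5% of all genes tested were higher and 17.6% lower. Noradrenaline handling genes gave 1 call. Of 16 genes for synthesis, packaging, reuptake and breakdown, 13 were tested, 1 was lower and none higher. Th, the rate-limiting enzyme of noradrenaline synthesis, stood at 6.67 ± 1.14 in NA1b and 5.77 ± 0.768 in other neurons (log2 difference of 0.20, adjusted p = 0.279), and Dbh, the last enzyme of the path, at 11.9 ± 1.4 and 10.2 ± 0.908 (0.22, adjusted p = 0.228). Slc18a2, the vesicular monoamine transporter VMAT2, was at 8.28 ± 0.637 and 8.3 ± 0.511 (-0.01, adjusted p = 0.986). Slc6a2, the noradrenaline reuptake transporter, was at 18.6, 17.4, 17.6, 18.8 and 16.4 against 12.1, 11.5, 16.4, 18.3 and 12.5, higher in each mouse with overlapping groups (0.34, adjusted p = 0.0559). The gene called was Qdpr, which recycles the cofactor of Th (-0.59, adjusted p = 0.00895), and its call was lost without replicate 3 (-0.51) and after thinning (-0.45). NA1b thus held mRNA of both VMAT genes, with Slc18a1 at a higher level than in other neurons.

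Of 21 peptide genes, 3 passed the filter, Npy, Gal and Vip, and all 3 were lower in NA1b. The others were not tested, so this count does not describe peptide genes as a class. Npy stood at 8.38, 15.3, 7.15, 7.58 and 6.36 in NA1b against 47.8, 48.1, 61.8, 42.3 and 38 in other neurons (log2 difference of -2.45 ± 0.16, adjusted p = 8.27e-11), and the groups lay far apart with replicate 2 highest among NA1b. Gal stood at 4.53, 2.69, 5.13, 3.97 and 1.67 against 12.4, 8.1, 23.2, 12.3 and 10.2 (-1.86), without overlap. Over single NA1b neurons the median was 5.19 UMIs of Npy per 10000 and the highest 10% held at least 31.1, where the median of other neurons was 34.4. Free RNA from neurons rich in Npy also gives UMIs, and its share in NA1b was not measured. Vip stood at 0.434, 0.505, 0.321, 0.28 and 0.15 against 7.31, 2.88, 3.93, 4.67 and 1.53 (-3.14). In NA1b it reached 0.5 in replicate 2 only, so it passed the filter through other neurons. The cholinergic subtype Ach2 held 84.5 pooled, and against NA1a (0.30, adjusted p = 0.821) and NA1c (-0.67, adjusted p = 0.741) Vip was not called.

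Genes for the granin matrix of dense-core vesicles and for prohormone processing were lower as well, 5 of 10 tested (of 11 measured), with none higher and a median of -0.44. Chga, chromogranin A, stood at 2.25, 0.843, 1.63, 1.81 and 1.59 against 3.3, 3.01, 3.79, 3.69 and 4.37 (-1.16, adjusted p = 2.21e-05), without overlap and lowest in replicate 2. Pam, which amidates the C terminus of peptides, was at 2.2 ± 0.0441 against 3.74 ± 0.425 (-0.73). Scg5 (-0.59), Cpe (-0.57) and Scg2 (-0.39) were called too. The call was lost without replicate 3 or 4 for Scg5 (-0.49 and -0.53) and Cpe (-0.50 and -0.48), and without replicate 2, 3 or 4 for Scg2 (-0.37, -0.39 and -0.35). Against NA1a, NA1c and NA2 only, Cpe was at -0.18 (adjusted p = 0.468). After thinning, Scg5 (-0.58), Cpe (-0.66) and Scg2 (-0.36) were not called, and Chga and Pam kept their calls.

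Receptors for peptides and adrenaline gave 5 tested genes of 35 measured, and the 2 called were Sctr and Rxfp1, both lower. Adra2a, the presynaptic alpha-2A adrenergic autoreceptor gene, did not pass the filter in this comparison and stood at 0.611 ± 0.248 in NA1b and 0.214 ± 0.0905 in other neurons. Neurotrophin and GDNF family receptors gave 5 tested genes of 13, with Gfra2 the 1 called (0.75, adjusted p = 0.0145), a call lost without replicate 2 (0.54) and after thinning (0.36, adjusted p = 0.667). Of 24 adenylyl cyclase and phosphodiesterase genes 4 were tested, and Adcy1 was the 1 called. Nicotinic and muscarinic receptors (3 of 15 tested) and HCN and TRP channels (3 of 23) gave no call.

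Potassium, calcium and sodium channel genes were more often higher than lower against all other neurons together, and not against NA1c. There, of 15 potassium channel genes tested 1 was lower and none higher, and no calcium or sodium channel gene was called. Against NA1a, 3 potassium channel genes were higher and 1 lower, and 1 sodium channel gene was lower and none higher. Of 82 potassium channel genes, 12 were tested against all other neurons, 6 were higher and 1 lower (58.3% called, against 31% of all genes), with a median of 0.56. Kcnt1 led, and among the others that were higher were Kcnh7 (0.96), Kcnip4, which encodes a subunit of A-type channels (0.76), and Kcnma1, the pore of the BK channel that calcium and voltage open (0.70). Kcnmb4, a beta subunit of that BK channel, moved the other way, at 0.614 to 0.753 in NA1b and 1.21 to 2 in other neurons (-1.14, adjusted p = 6.67e-05), without overlap. Kcnh7 (0.65) lost its call after thinning to 2000 UMIs.

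Of 24 calcium channel genes, 7 were tested, 5 were higher and none lower (median of 0.60): Cacna1a, the P/Q-type pore (0.72), the auxiliary Cacna2d3 (0.61), Cacna2d2 (0.61) and Cacna2d1 (0.60), and Cacna1b, the N-type pore (0.44). Without replicate 2, 3 or 4 the call of Cacna1b was lost (0.41, 0.45 and 0.38), that of Cacna2d3 without replicate 2 or 4 (0.53 and 0.54) and that of Cacna2d2 without replicate 2, 3 or 5 (0.54, 0.56 and 0.51). After thinning, Cacna1a (0.49), Cacna2d1 (0.53), Cacna2d2 (0.81) and Cacna2d3 (0.55) were not called. Against NA1a, NA1c and NA2 only, Cacna1b (0.31), Cacna2d2 (0.43) and Cacna2d3 (0.40) were not called. Of 15 sodium channel genes, 10 were tested and 3 were higher, Scn8a (0.62) and Scn2a (0.53) among them, with Scn3b lower (-0.64). Scn8a and Scn2a were not called when NA1a, NA1c and NA2 alone were the comparison (0.39 and 0.40), nor after thinning (0.57 and 0.49). Calls were lost without replicate 3 or 4 for Scn2a (0.44 and 0.45) and without replicate 2 or 4 for Scn3b (-0.51 and -0.55). Of 14 genes of the sodium pump and its FXYD regulators, 10 were tested, with Fxyd2 higher (0.57) and 3 lower, Fxyd1 (-1.95) and Fxyd5 (-0.82) among them. The call of Fxyd2 was lost without the filter on low values and without the mouse as a block.

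Of 38 glutamate and GABA receptor genes, 7 were tested, 5 were higher and 1 lower. Gria3 stood at 0.827, 1.23, 2.06, 1.73 and 1.3 against 0.361, 0.621, 0.428, 0.498 and 0.414 (1.40, adjusted p = 2.77e-05), without overlap. In other neurons it reached 0.5 in replicate 2 only, so it passed the filter through NA1b. Gria2, the AMPA subunit that limits calcium entry, was higher by 0.81, while Gria1, another AMPA subunit gene, stood at 0.382 ± 0.256 against 1.07 ± 0.292 (-1.44, adjusted p = 0.000177). The NA1b mean of Gria1 lay below the 0.5 of the filter. The kainate subunit gene Grik5 (0.67), the NMDA subunit gene Grin1 (0.59) and the GABA-B receptor gene Gabbr1 (0.50) were higher. Of these 6, Gria2 and Gria3 were called under every alternative tried. Gabbr1 was not called without replicate 1, 2, 3 or 5 (0.45, 0.33, 0.53 and 0.49), nor Grin1 without replicate 2, 4 or 5 (0.46, 0.52 and 0.59), and Grin1 was not called against NA1a, NA1c and NA2 only (0.50). After thinning, Gria1 (-1.15), Grik5 (0.38), Grin1 (0.48) and Gabbr1 (0.62) were not called.

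Genes of vesicle release were mixed, 3 higher and 2 lower of 31 tested (of 52), or 16.1% called against 31% of all genes. Cplx1, complexin 1, stood at 2.69, 3.27, 2.2, 2.45 and 2.29 against 1.31, 1.72, 1.24, 1.75 and 0.987 (0.85, adjusted p = 0.00034), without overlap, and the calcium sensor gene Syt7 was higher by 0.99. Syn2, synapsin 2, was lower (-0.67). Cytoskeleton and growth genes were lower in 8 of 17 tested and higher in none (median of -0.38), led by the tubulin gene Tuba1a (-0.83) and the microtubule regulator gene Stmn1 (-0.77). Against NA1a, 3 of the 17 were lower, Stmn1, Stmn2 and Stmn3, where 3.66% of all genes were (median of 0.16). None of the 17 was called against NA1c. Tuba1a was thus called against neither.

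Of 38 transcription factor genes, 18 were tested, 6 were higher and 2 lower (44.4% called, against 31% of all genes). Casz1 was followed by Nfib (0.90), Ebf1 (0.88), Gata3 (0.72), Meis1 (0.68) and Satb1 (0.61). Against NA1a, 1 of 20 tested was higher, Casz1 (1.94% of all genes were). Against NA1c it was also 1 of 20, Ebf1 (0.521% of all genes were). Nfib, Gata3, Meis1 and Satb1 were called against neither. Ebf1 stood at 3.08, 1.95, 4.4, 4.13 and 2.9 against 1.81, 1.22, 1.86, 2.22 and 1.43 (adjusted p = 0.000155), higher in each mouse with overlapping groups, and Ach2 (7.39 pooled) was above NA1b (3.6). Gata3, which helps to keep the noradrenergic identity of sympathetic neurons, was at 1.36 ± 0.335 against 0.773 ± 0.122. Phox2a, another factor of that identity, was lower (-0.80), as was Zbtb20, at 4.11, 4.81, 2.97, 4.29 and 3.72 against 7.2, 7.88, 6.35, 5.15 and 8.41 (-0.80, adjusted p = 0.000312). The call was lost without replicate 3 for Gata3 (0.56), without replicate 3 or 4 for Meis1 (0.55 and 0.53) and without replicate 1, 2, 3 or 5 for Satb1 (0.50, 0.66, 0.48 and 0.61). After thinning, Gata3 (0.24, adjusted p = 0.567) and Satb1 (0.76) were not called, and Satb1 was not called against NA1a, NA1c and NA2 only (0.58).

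Axon guidance genes were higher in 6 and lower in 2 of 16 tested (of 68), 50% called against 31% of all genes. Beside Ntng1, the netrin receptor gene Unc5c (0.90), the ligand gene Slit3 (0.87), and the semaphorin pathway genes Sema4b (0.78), Nrp2 (0.74) and Plxnc1 (0.64) were higher. Nrp1, the sister co-receptor of Nrp2, went the other way, at 0.25, 0.492, 0.531, 0.383 and 0.4 against 1.22, 1.18, 1.19, 0.968 and 1.19 (-1.31, adjusted p = 6.67e-05), and the ephrin receptor gene Epha5 was lower (-0.87). In NA1b, Nrp1 reached 0.5 in replicate 3 only, so it passed the filter through other neurons. Slit3 lost its call without replicate 4 (0.59), Nrp2 without replicate 1, 2 or 3 (0.65, 0.81 and 0.51) and Plxnc1 without replicate 1, 2 or 4 (0.56, 0.54 and 0.69). Sema4b (0.94) and Plxnc1 (0.68) lost it after thinning, at larger differences. Against NA1a, 2 of 19 tested were higher, Nrp2 and Ntng1 (1.94% of all genes were). Against NA1c it was 1 of 19, Ntng1 (0.521% of all genes were). The call of Ntng1 against NA1a was lost without replicate 1, 3, 4 or 5 (1.06, 0.88, 0.81 and 0.83). Unc5c, Slit3, Sema4b and Plxnc1 were called against neither NA1a nor NA1c.

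Cell adhesion genes were lower in 5 of 13 tested (of 49) and higher in 1. The protocadherins Pcdh10, Pcdh7 (-2.20) and Pcdh9 (-1.13) and the contactin gene Cntn5 (-2.13) were all lower without overlap, and the cadherin gene Cdh6 was lower too (-0.84), a call lost after thinning (-0.82, adjusted p = 0.117) and without the filter on low values (adjusted p = 0.0578). Of 43 collagen genes, Col5a3 alone passed the filter. Of 25 Hox genes 1 was tested and not called. Of 16 pan-neuronal and sympathetic identity genes, 14 were tested, with Gata3 higher and Phox2a lower. Of 15 genes that mark other subtypes, 11 were tested and 10 were lower. They mark subtypes drawn from these same neurons, so this count describes the labels and does not test them.

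**Figure D3:**
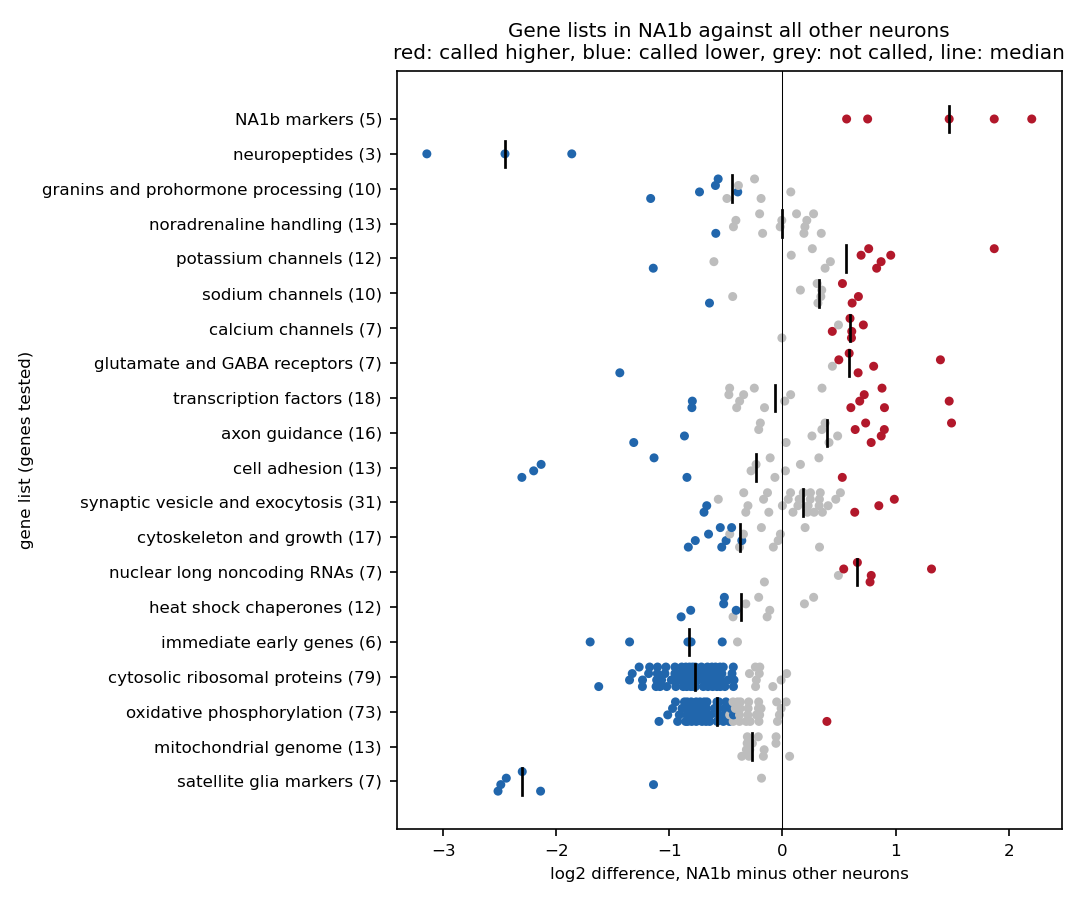
Log2 difference of NA1b minus other neurons (horizontal axis) for the tested members of 20 gene lists (rows); red points are called higher, blue called lower and grey not called, and the vertical tick of each row is the median. Potassium and calcium channels and glutamate receptors lie mostly right of 0, and ribosomal, oxidative phosphorylation and peptide genes left of it.

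Housekeeping lists also moved against the other neurons. Of 82 cytosolic ribosomal protein genes, 79 were tested, 70 were lower and none higher (median of -0.77), and of 83 nuclear oxidative phosphorylation genes, 73 were tested, 47 were lower and 1 higher (-0.58). Against NA1a, 6 of 75 tested oxidative phosphorylation genes were lower (median of -0.34), where 3.66% of all genes were. Against NA1c none of the 75 was lower and 2 were higher (median of 0.27), where 0.521% of all genes were higher. Rpl15 stood at 0.932, 1.61, 1.7, 2.41 and 1.66 against 5.33, 4.78, 6.18, 5.79 and 3.88 (-1.62), and its highest subtype was NA2 (11.5 ± 1.32). Of 7 nuclear noncoding RNAs 5 were higher, Miat, Kcnq1ot1 (0.79), Meg3 (0.78), Neat1 (0.66) and Snhg11 (0.54), the last of which was not called without replicate 3 or 4 (0.47 in each case) nor against NA1a, NA1c and NA2 only (0.35). Immediate early genes were lower in 5 of 6 tested (median of -0.82) and heat shock chaperones in 5 of 12 (-0.37). Against NA1a, NA1c and NA2 only, Fos (-0.25), Jun (-0.06), Junb (-0.37) and Hspa1a (-0.03) were no longer called. None of the 13 genes of the mitochondrial genome was called.

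Without the neurons of shared barcodes, which are NA2, Ach2 and Glut neurons of the comparison side, the markers and peptide genes that were tested kept their calls, as did the peptide receptor genes Sctr and Rxfp1. Vip did not pass the filter there, and the difference of Fxyd2 was 0.92 in place of 0.57. The calls lost were Scg5 (-0.35), Scn2a (0.39), Cacna1b (0.36), Cacna2d2 (0.51), Nrp2 (0.72), Plxnc1 (0.64), Grin1 (0.52), Gabbr1 (0.43), Satb1 (0.56), Snhg11 (0.41) and the complex I gene Ndufv3 (0.38), which was also not called against NA1a, NA1c and NA2 only (0.25). In that fit 323 of 3905 genes were higher (8.27%) and 463 lower (11.9%), 20.1% in all. Of the tested calcium channels 3 of 8 were then higher, of glutamate and GABA receptors 3 of 7, of cytosolic ribosomal proteins 66 of 79 lower and of oxidative phosphorylation genes 35 of 73 lower. Against NA1a, Gria3 (1.17), Kcnip4 (0.85) and Meg3 (0.71) lost their calls, and Kcnt1 was called against NA1c (1.00, adjusted p = 0.0427). No NA1a or NA1c neuron carried a shared barcode, but the NA2 profiles in the same fit lost neurons. The genes tested there also changed, from 4995 to 5301. Which of these changes moved the calls was not tested. With the mouse not entered as a block, which leaves the differences as they are, Cacna1b, Cacna2d1, Cacna2d2, Scn2a, Grin1, Gabbr1, Satb1, Nrp2, Plxnc1, Scg2, Meg3, Snhg11, Hspa1a and Ndufv3 were not called against all other neurons (adjusted p of 0.0531 to 0.148).

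Across the 8 subtypes, pooled over all neurons of all mice, the order of Col5a3 was NA1b (34.6), NA1c (12.2), Ach2 (9.03), NA1a (8.79), NA3 (8.31), Ach1 (4.49), NA2 (0.496) and Glut (0.211). By mouse, NA1b (34.2 ± 6.29), NA1c (12.6 ± 1.55; 10 to 14.3) and NA1a (7.06 ± 1.74; 5.42 to 9.56) did not overlap. The neighbours Ach2, NA1a and NA3 were not compared by mouse, since Ach2 had at least 10 neurons in 2 mice and NA3 in 3. Kcnt1 followed the same order at the top, with 7.1 in NA1b and 2.71 in NA1c. Npy stood at 65.7 in NA1a, 43.2 in Ach1, 43.1 in NA1c, 42.6 in NA2, 17.8 in NA3, 13.8 in Glut, 10.5 in NA1b and 4.34 in Ach2. Ach2 was thus the 1 subtype with less Npy than NA1b in the pooled values. Sctr was highest in NA1c (17.6) and NA1a (7.69), and NA1b (1.15), NA2 (1.03), Glut (0.846) and Ach2 (0.622) formed the low end.

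**Figure D4:**
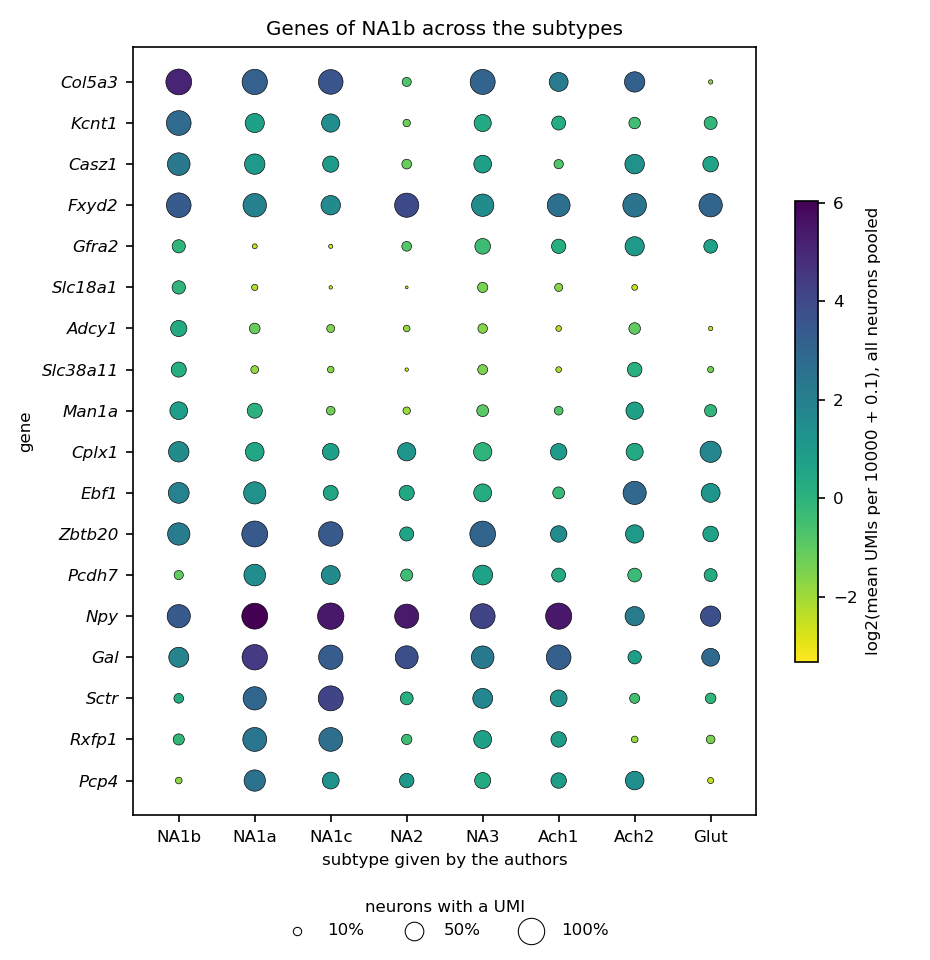
Pooled levels of 18 genes (rows) in the 8 subtypes (columns); colour is log2(mean UMIs per 10000 + 0.1) and dot size the percent of neurons with a UMI. The NA1b column is high for Col5a3, Kcnt1, Casz1 and Adcy1 and low for Npy, Sctr, Rxfp1 and Pcp4.

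NA1a and NA1c, the subtypes that share the name NA1, were then compared with NA1b by mouse, in 1 fit with NA2. Both comparisons use the same NA1b profiles, so their values are given side by side and their overlap is not read. Against NA1a, 280 of 4995 genes were called (5.61%), 183 lower in NA1b (3.66%) and 97 higher (1.94%). The split was 580 lower and 123 higher when natural log values were averaged. The count was 117 without replicate 1, 165 without replicate 2, 162 without replicate 4 and 103 after thinning. Against NA1c, 90 were called (1.8%), 26 higher (0.521%) and 64 lower (1.28%). The split was 66 and 75 with averaged natural log values and 65 and 86 with summed UMIs, and the count was 45 without replicate 4 and 55 without replicate 5.

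Against NA1a, the 5 largest positive differences were those of Adcy1 (2.38 ± 0.40, SE), Slc38a11 (2.37), Gfra2 (2.31), Col5a3 (2.27 ± 0.20) and Kcnt1 (2.18). Adcy1 stood at 0.111, 0.214, 0.29, 0.275 and 0.0966 UMIs per 10000 in NA1a, all below the lowest NA1b mouse (0.838). Gfra2 was found at 0.0516, 0.194, 0, 0.0467 and 0.252 in NA1a, also below each NA1b mouse. The 5 largest negative ones were Pcp4 (-4.42 ± 0.26), Sctr (-3.78), Npy (-3.26 ± 0.18), Rxfp1 (-2.99) and Cntn5 (-2.93). Npy stood at 77.5, 87.8, 93.3, 80.6 and 72.5 in NA1a, at least 72.5 where NA1b reached 15.3 at most. After thinning to 2000 UMIs, Adcy1 (1.67) and Gfra2 (2.17) were not called against NA1a.

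Against NA1c, the 5 largest positive differences were Gfra2 (2.77 ± 0.39), Man1a (2.51), Adcy1 (2.23), Adra2a (1.93, adjusted p = 0.00582) and Slc38a11 (1.87). Gfra2 was at 0 in 3 of the 5 NA1c mice and at 0.114 and 0.12 in the others. The 5 largest negative ones were Sctr (-4.82 ± 0.39), Rxfp1 (-3.09), Pcp4 (-2.78), Col23a1, a transmembrane collagen gene (-2.73), and B230209E15Rik (-2.71). Sctr stood at 16.1, 21.6, 10.9, 18.6 and 13.3 in NA1c, the highest of any subtype, and the highest NA1b mouse reached 1.76. Col5a3 (1.43 ± 0.20, adjusted p = 2.24e-05) and Fxyd2 (1.63 ± 0.16) were called against NA1c, while Kcnt1 (1.00, adjusted p = 0.227) and Casz1 (0.97, adjusted p = 0.12) were not. The groups overlapped for Kcnt1 and did not for Casz1. After thinning, Gfra2 (2.00), Adcy1 (1.81) and B230209E15Rik (-2.22) were not called against NA1c, nor was Slc38a11 (2.02), which was also not called without replicate 1, 2, 4 or 5 (1.59 to 2.02).

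By role, the peptide genes Npy and Gal and the genes Chga and Pam were lower than in both relatives. The log2 differences against NA1a and NA1c were -3.26 and -2.33 for Npy, -2.64 and -1.57 for Gal, -1.45 and -1.63 for Chga and -0.87 and -0.83 for Pam. Pam was not called without replicate 4 or 5 against NA1a (-0.80 and -0.78), nor without replicate 1, 4 or 5 against NA1c (-0.82, -0.76 and -0.82), nor after thinning in either (-0.96 and -0.94). Noradrenaline handling gave 1 call, Slc6a2 against NA1a (0.52, adjusted p = 0.0489), and it was lost whichever mouse was left out (0.42 to 0.59). Adra2a was higher against NA1a as well (2.08 ± 0.42, adjusted p = 0.00206), and Ramp1, a partner of the calcitonin-like receptor, was higher against NA1c (1.26) and at -0.10 against NA1a (adjusted p = 0.89). The call of Ramp1 was lost without replicate 4 (1.07). The adhesion genes Pcdh10 (-2.80 and -2.43), Pcdh7 (-2.85 and -2.65), Pcdh9 (-1.67 and -1.79) and Cntn5 (-2.93 and -2.27) and the guidance genes Nrp1 (-1.88 and -1.80), Epha5 (-1.75 and -1.19) and Slit2 (-2.63 and -2.43) were lower in both. Cntn5 was not called against NA1c without replicate 5 (-1.75), and Nrp1 was not called there after thinning (-1.28).

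Kcnmb4 (-1.41 and -1.33), Zbtb20 (-1.20 and -1.41) and Tcf4 (-0.93 and -1.05) were also lower than in NA1a and than in NA1c. Zbtb20 stood at 7.87 to 10.2 in NA1a, 9.95 to 11.2 in NA1c and 2.97 to 4.81 in NA1b, with no overlap. The call of Kcnmb4 against NA1c was lost without replicate 4 (-1.09), and that of Tcf4 after thinning in both comparisons (-0.61 and -0.75). Cplx1 (1.40, adjusted p = 0.000611) and Syt7 (1.41, adjusted p = 0.00598) were higher against NA1a, and their differences against NA1c were 0.78 (adjusted p = 0.154) and 0.03 (adjusted p = 0.986). Gria3 was 1.17 against each (adjusted p = 0.0489 and 0.109), and Gria1 was -1.39 (adjusted p = 0.0748) and -2.18 (adjusted p = 0.00461). Without 1 mouse, Gria3 was not called against NA1a when replicate 1, 3, 4 or 5 was left out (0.98 to 1.32), nor Gria1 against NA1c without replicate 4 (-2.02). Neither call held after thinning (0.64 and -1.63). Ribosomal protein genes were lower than in NA1a for 34 of 79 (3.66% of all genes were) and lower than in NA1c for none (1.28% of all genes were; medians of -0.55 and -0.03), and no calcium channel gene was called in either comparison.

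**Figure D5:**
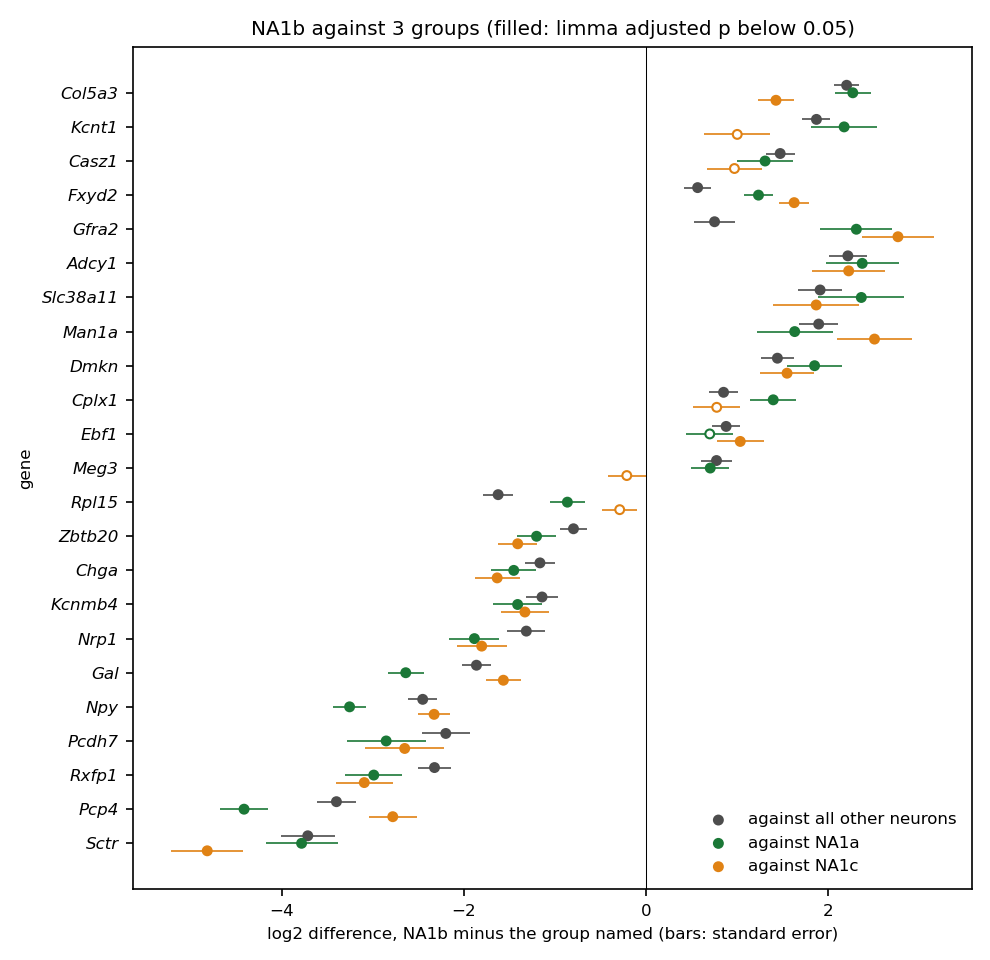
Log2 difference of NA1b (horizontal axis, ± SE) against all other neurons, NA1a and NA1c for 23 genes (rows); filled symbols have an adjusted p below 0.05. Npy, Sctr, Rxfp1, Pcp4 and Pcdh7 lie left of 0 in all 3 comparisons and Col5a3 and Adcy1 right of it.

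Reporter RNA was rare. At least 1 UMI of GFP or tdTomato was found in 13 of 311 NA1b neurons, or 4.18% (exact Clopper-Pearson 95% interval of 2.24 to 7.04), and in 12 of 992 other neurons, or 1.21% (0.627 to 2.104). In NA1b, 3 neurons held GFP and 11 held tdTomato, the heart and paw labels, so 1 held both. By mouse the labelled NA1b neurons were 3 of 38, 8 of 94, 1 of 31, 1 of 33 and 0 of 41, where the last allows a share of neurons with a reporter UMI of up to 7.32% (3 neurons of the total) and sets no limit on the share of neurons that the virus reached. Other neurons had 3 of 132, 7 of 141, 1 of 134, 0 of 202 and 0 of 156. Replicates 1 and 2 thus gave 11 of the 13, and replicate 2 alone gave most in both groups. With at least 2 UMIs required, 3 NA1b neurons and 0 of 992 other neurons remained, and no NA1b neuron of the unmatched mice was labelled. Among neurons with more than 1000 genes, 9 of 307 NA1b neurons (2.93%) and 9 of 989 other neurons (0.91%) were labelled. Of those in NA1b, 1 held GFP and 8 held tdTomato. The share in a cell type that cannot carry the label was not measured, so free reporter RNA was not tested, and the intervals cover counting error only.

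The 3 mice without a matched sample, with 14, 21 and 39 NA1b neurons, were not used in any test. All 5 matched mice are of batch 2, so no test held a mouse of batch 1 (replicates 6 to 8). Their 74 NA1b and 227 other neurons, pooled, gave 31.6 and 8.35 UMIs per 10000 for Col5a3, 9.87 and 1.73 for Kcnt1, 14.4 and 4.98 for Fxyd2 and 0.503 and 0.22 for Gfra2. Adcy1 was at 0.774 and 0.376, closer together than in any of the 5 matched mice. Npy was at 10.6 and 35.2, Sctr at 1.6 and 7.24 and Pcp4 at 0.135 and 2.78. Each difference had the direction seen in the matched mice.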

How the data were processed

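Stellate ganglion cells of 8 mice were sequenced with the 10x Genomics system. The authors mapped reads to mm10 (GRCm38) with the GFP sequence added, using Cell Ranger 2.1.1, filtered cells on their numbers of genes and UMIs and on mitochondrial RNA, and integrated, clustered and annotated them in Seurat. Neurons had been picked on Snap25, Syt1, Pcsk1n and Prph. No doublet removal is named and none was applied. What the authors deposited is, for 19224 genes, a natural log value: ln(1 + UMIs per 10000 UMIs of the neuron). UMIs were recovered from them, and 100% of nonzero values lay within 0.01 of a whole UMI. Means over neurons were tested.

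Where a mouse had 10 or more neurons of a group, log2(mean UMIs per 10000 + 0.1) entered a limma fit (limma 3.58.1, R 4.3.3), with the mouse as a block, an intensity trend and Benjamini-Hochberg adjustment. Genes needed a mean of 0.5 in as many profiles as the smaller group contributed. A block was used because both profiles of a pair come from 1 library (residual correlations of 0.0435 to 0.438 between NA1b and other neurons). All 5 matched mice are of batch 2. Levels, intervals and figures came from Python 3.11.15, NumPy 2.4.6, pandas 2.3.3, SciPy 1.17.1 and matplotlib 3.10.9. Only the limma fit of NA1b against all other neurons was tested on simulated data. Members and gene lists were chosen with earlier results of these data known. Genes were named by rule: the markers, the 12 largest called differences each way against all others and the 5 each way against NA1a and NA1c with 1 sign in every mouse, the 4 smallest p of each list, members of role groups described in full, and Npy. A few genes that met these criteria are not reported here. Alternatives covered the pseudocount, filter, block, scaling, depth, comparison group and each mouse, and, added after the data were seen, shared barcodes.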

Additional observations from a re-analysis of the deposited data

Results flagged for a closer look

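In 65 groups of 5 mice, each a named gene or depth measure in NA1b or in other neurons, a mouse was marked when its gap to the nearest other mouse exceeded 0.71 of the range of the group (Dixon's limit for 5 values), which chance does in about 1 of 20 groups. Npy in NA1b was 15.28 UMIs per 10000 in replicate 2, above the other 4 mice, with a gap of 0.774 of the range. Fxyd2 in NA1b was 7.065 in replicate 5, below the others (0.742). Among other neurons, Nrp1 was 0.9682 in replicate 4, below the others (0.826), and Gal was 23.24 in replicate 3, above the others (0.714). The mean mitochondrial share of other neurons was 4.362% in replicate 3, below the other mice (0.896). Neither Npy nor Gal nor Nrp1 overlapped between NA1b and other neurons with these mice included.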

How the results depend on the processing

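Against all other neurons, 1207 genes were called, and 745 (290 higher, 455 lower) without the replicate block, 495 after thinning to 2000 UMIs, 786 without neurons of shared barcodes (chosen after seeing the data) and 798 to 1209 with 1 mouse left out, lowest without replicate 4. Against NA1a, 280 were called, and 209 without the block, 442 with a pseudocount of 1, 171 without the filter, 103 after thinning, 703 with averaged natural log values and 117 to 253 with 1 mouse left out. Against NA1c, 90 were called, and 79 without the block, 144 with a pseudocount of 1, 151 with summed UMIs, 141 with averaged natural log values and 45 to 114 with 1 mouse left out. The cause of these shifts was not tested. Labelled neurons were 0.965% of NA1b when 2 UMIs were required and 2.93% among NA1b neurons with more than 1000 genes.

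Of 5727 values of named genes under the alternatives, 5285 kept their direction and side of the threshold, 353 lost the call, 88 gained one and 1 reversed, Dcn (0.00) against NA1a, NA1c and NA2 only, with no call. Calls were lost most often after thinning (60), without the filter (50), without replicate 4 (40) and without the block (29), the fit that ignores the pairing of profiles by mouse. Depth limits genes such as Slc18a1 and Gfra2, whose median NA1b neuron has no UMI, and most receptor and channel genes fell below the filter.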

Other observations

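Hoxc8, a Hox gene of trunk position, stood at 0.0561, 0.119, 0.0924, 0.031 and 0.0249 UMIs per 10000 in NA1b of replicates 1 to 5 and at 0.609, 0.347, 0.351, 0.445 and 0.398 in other neurons, so that no mouse overlapped. It was below the filter in that comparison and was called with limma against NA1a (log2 difference of -1.45, adjusted p = 0.0442) and against NA1c (-1.68, adjusted p = 0.0337). Its NA1b values rest on few UMIs and lay below 0.5 in each mouse. Hoxc8 thus passed the filter of that fit through the other subtypes alone, and its p measures only how steady the difference was over mice. Both calls were lost without replicate 3 (-1.66 and -1.82), replicate 4 (-1.35 and -1.77) or replicate 5 (-1.36 and -1.54), and after thinning to 2000 UMIs. In the unmatched mice, pooled, Hoxc8 was at 0.0405 in NA1b and 0.31 in other neurons.

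Nrp2 and Nrp1, co-receptors that bind different semaphorins, differed from NA1a in opposite directions. Nrp2 was higher in NA1b (1.72, adjusted p = 0.0109) and Nrp1 lower (-1.88, adjusted p = 2.15e-05). Each was called without any 1 of the 5 mice, and Nrp2 was not called after thinning (2.12). Against NA1c, Nrp2 was at 0.85 (adjusted p = 0.493).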
